A study of Homo sapiens with 12 samples.

Results

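The genes described here are 43 germline and cancer-testis genes, a hand-made list whose members were found by matching the Ensembl identifiers of the count tables to gene symbols in GENCODE. The list was chosen with earlier results of these data known. Shares of its members set beside shares of all genes are therefore a description and no test of the list. All 43 were among the 63677 identifiers listed, 32000 of them with counts. MiaPaca2 is a human pancreatic ductal adenocarcinoma (PDAC) cell line. Cells were treated for 24 h with DMSO (Con), with 1 µM of the Vitamin D analog calcipotriol (CPT), with 2 mM glyceryl triacetate and 1 µM 5-Aza-2′-deoxycytidine (GTA+5-Aza), or with all 3 agents (CPT+GTA+5-Aza). GTA supplies acetyl groups for histone acetylation, and 5-Aza traps DNA methyltransferases so that methylation is lost as cells divide. The study calls cells given GTA and 5-Aza epigenetically primed, and the Con and CPT groups unprimed. RNA-seq was made from 3 libraries per group. The study's general statistics note describes independent samples for each experiment, without saying for RNA-seq whether these were separate cultures, so p-values measure the spread between these libraries, part of which may be technical. All 12 libraries came from 1 cell line, and GTA and 5-Aza were not given apart.

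Germline genes build germ cells, the piRNA pathway that holds transposons in check, and the chromosome structures of meiosis. In most somatic cells they are silent, and many are held silent by methylation of CpG-dense promoters and by repressor complexes. Cancer-testis antigens are germline proteins that reappear in tumors, and many of their genes lie on the X chromosome. Demethylating drugs are known to reopen some of these genes in tumor cell lines.

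Total counts were 18476768 to 21224665 in the 6 unprimed libraries and 16162490 to 19705638 in the 6 primed ones. The defining markers of the line were as follows. The keratins KRT8 (25823 to 34350 counts per library) and KRT18, and the mesenchymal filament VIM (91274 to 129496), were abundant. The epithelial adhesion genes EPCAM and CDH1 had at most 1 and 4 counts in a library, and CDKN2A, which this line has lost, had none.

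Of the 43 genes, 39 had a count in some library, and 21 were at 0 in all 6 unprimed libraries but had counts after priming. No gene showed the reverse. Among all genes with a count, 9.87% were at 0 in the unprimed libraries only and 6.91% in the primed libraries only. The levels reached after priming were low. Apart from PRAME, SYCP3, STAG3, TUBA3D, REC8 and DMC1, no member exceeded 41 counts in any library. In bulk RNA, few cells with many transcripts and many cells with few transcripts cannot be told apart.

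The 4 promoters below belong to the members with the smallest p in GTA+5-Aza against Con. They are shown as the leading members of that comparison, with the CpG that DNA methylation acts on. Each runs from 250 bases before to 50 bases after the most upstream RefSeq start of the gene (GRCh38.p14). The letters run 5′ to 3′ on the strand of the gene, with every CpG in capitals. PRAME is at chr22:22559216-22559515 (minus strand, 13 CpG), FAM9C at chrX:13044571-13044870 (minus strand, 17 CpG), TDRD9 at chr14:103928206-103928505 (plus strand, 41 CpG) and SSX1 at chrX:48255142-48255441 (plus strand, 5 CpG).
PRAME: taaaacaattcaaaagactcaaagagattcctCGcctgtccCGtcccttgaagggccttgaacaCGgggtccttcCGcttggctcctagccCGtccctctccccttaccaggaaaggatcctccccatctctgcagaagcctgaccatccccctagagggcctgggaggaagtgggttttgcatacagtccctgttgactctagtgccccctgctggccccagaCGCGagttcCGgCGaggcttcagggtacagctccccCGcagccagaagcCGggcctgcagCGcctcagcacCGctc
FAM9C: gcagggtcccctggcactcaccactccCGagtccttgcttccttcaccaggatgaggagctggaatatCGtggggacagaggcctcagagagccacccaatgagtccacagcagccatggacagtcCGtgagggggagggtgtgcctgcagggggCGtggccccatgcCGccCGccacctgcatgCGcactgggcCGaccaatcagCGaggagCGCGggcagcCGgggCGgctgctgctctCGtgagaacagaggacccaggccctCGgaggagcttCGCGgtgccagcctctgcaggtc
TDRD9: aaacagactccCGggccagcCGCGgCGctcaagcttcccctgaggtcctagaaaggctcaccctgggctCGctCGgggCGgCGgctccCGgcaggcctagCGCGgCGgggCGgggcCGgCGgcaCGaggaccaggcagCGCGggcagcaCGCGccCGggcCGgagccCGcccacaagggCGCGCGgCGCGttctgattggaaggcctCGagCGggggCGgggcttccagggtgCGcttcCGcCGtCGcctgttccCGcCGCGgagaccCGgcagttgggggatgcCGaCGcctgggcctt
SSX1: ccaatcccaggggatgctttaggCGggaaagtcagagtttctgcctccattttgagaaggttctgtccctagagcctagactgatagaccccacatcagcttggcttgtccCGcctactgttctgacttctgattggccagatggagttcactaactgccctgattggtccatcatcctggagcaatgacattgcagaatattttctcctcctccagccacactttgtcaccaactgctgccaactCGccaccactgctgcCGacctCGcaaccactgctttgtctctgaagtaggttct

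RefSeq windows of the same kind, 1 per gene at its most upstream start, were found for 36 of the 43 genes. Some genes have further starts, and the start used in these cells was not determined. The DDX4 window lay inside the gene and the TEX101 window upstream of its GENCODE start. PIWIL2, HORMAD1, TEX14, TEX15, MEIOB, MAGEA1 and CTAG2 had no entry in the table used. The median CpG number was 21 in the 36 windows and 14 in all 27324 promoters. At least 10 CpG were found in 31 of 36 members (86.1%) and in 55.9% of all promoters. The letters GCGGGA, as in sites of the repressor E2F6, were present on either strand in 17 members (47.2%) and in 26.8% of all promoters. The E-box CACGTG, the motif of MGA and MAX, was present in 5 members (13.9%) and in 7.41% of all promoters, and the ETS-type letters CCGGAA in 5 members (13.9%) and in 17.6%. Motifs were searched separately, without regard to overlap, and each contains a CpG, so their shares move with CpG content. Methylation itself was not measured in these files.

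**Figure D1:**
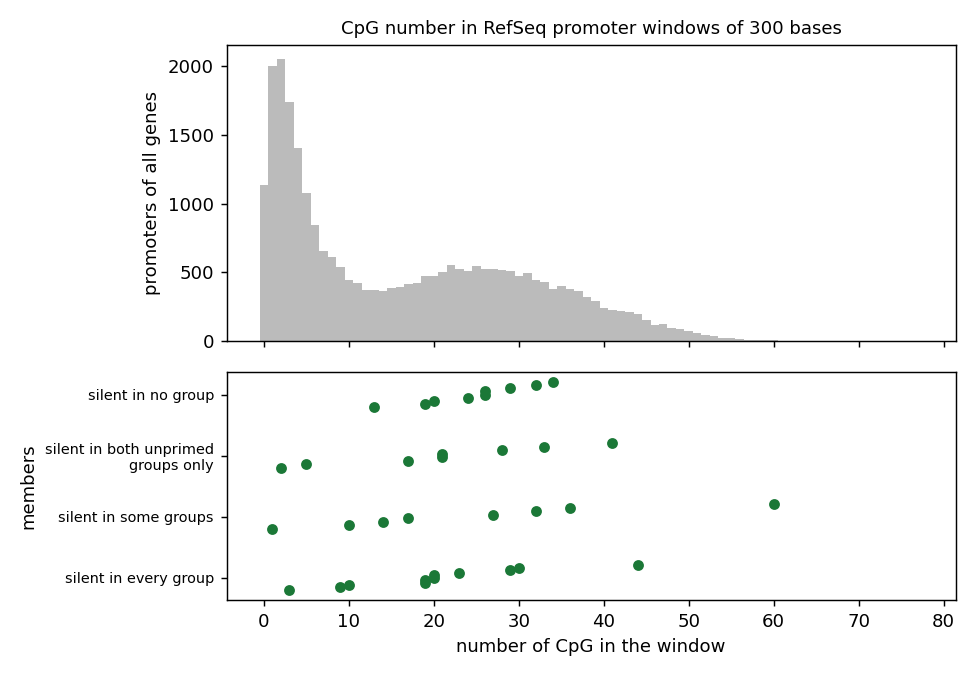
Number of CpG in 300-base RefSeq promoter windows, as a histogram over 27324 promoters (top) and as 1 point per member gene, by the groups in which the gene was silent (bottom). Most members (31 of 36) held at least 10 CpG. The medians were 20 for genes silent in every group, 21 for genes silent in both unprimed groups only and 26 for genes silent in no group.

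A gene was called silent in a group when its 3 libraries held at most 3 counts together, the limit that a count of 0 allows. This limit covers counting error only. By this measure 11 members were silent in every group: TEX101, PIWIL1, SOHLH2, ASZ1, RNF17, MOV10L1, TUBA3C, MAGEA3, MAGEA6, MAGEA12 and MAGEC2. The first 4 of them had no count in any library. Another 8 members were silent in both unprimed groups and in neither primed group, namely DAZL, BRDT, TDRD9, STK31, CTCFL, FAM9C, MAGEB2 and SSX1. They make up 20.5% of the members with a count, against 1.56% of all genes with a count. As the list was chosen with earlier results known, this difference is a description only. No member was silent in both primed groups only, against 1.06% of all genes.

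A further 12 members were silent in no group: SYCP3, TDRD12, PRAME, TEX14, TEX15, MEIOB, STAG3, REC8, SMC1B, DMC1, BOLL and TUBA3D. The last 12 (DDX4, MAEL, PIWIL2, HORMAD1, SPATA22, MEI1, RAD21L1, FKBP6, MAGEA1, MAGEA4, MAGEC1 and CTAG2) were silent in some groups in other combinations, mostly with a handful of counts in 1 primed group. The CpG number of the window at the most upstream start did not sort these classes. The windows held 3 to 44 CpG in the genes silent in every group and 2 to 41 in the genes silent in both unprimed groups only. The lowest values, of TEX101 and CTCFL, belong to genes with more than 1 start, and the other starts were not read.

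**Figure D2:**
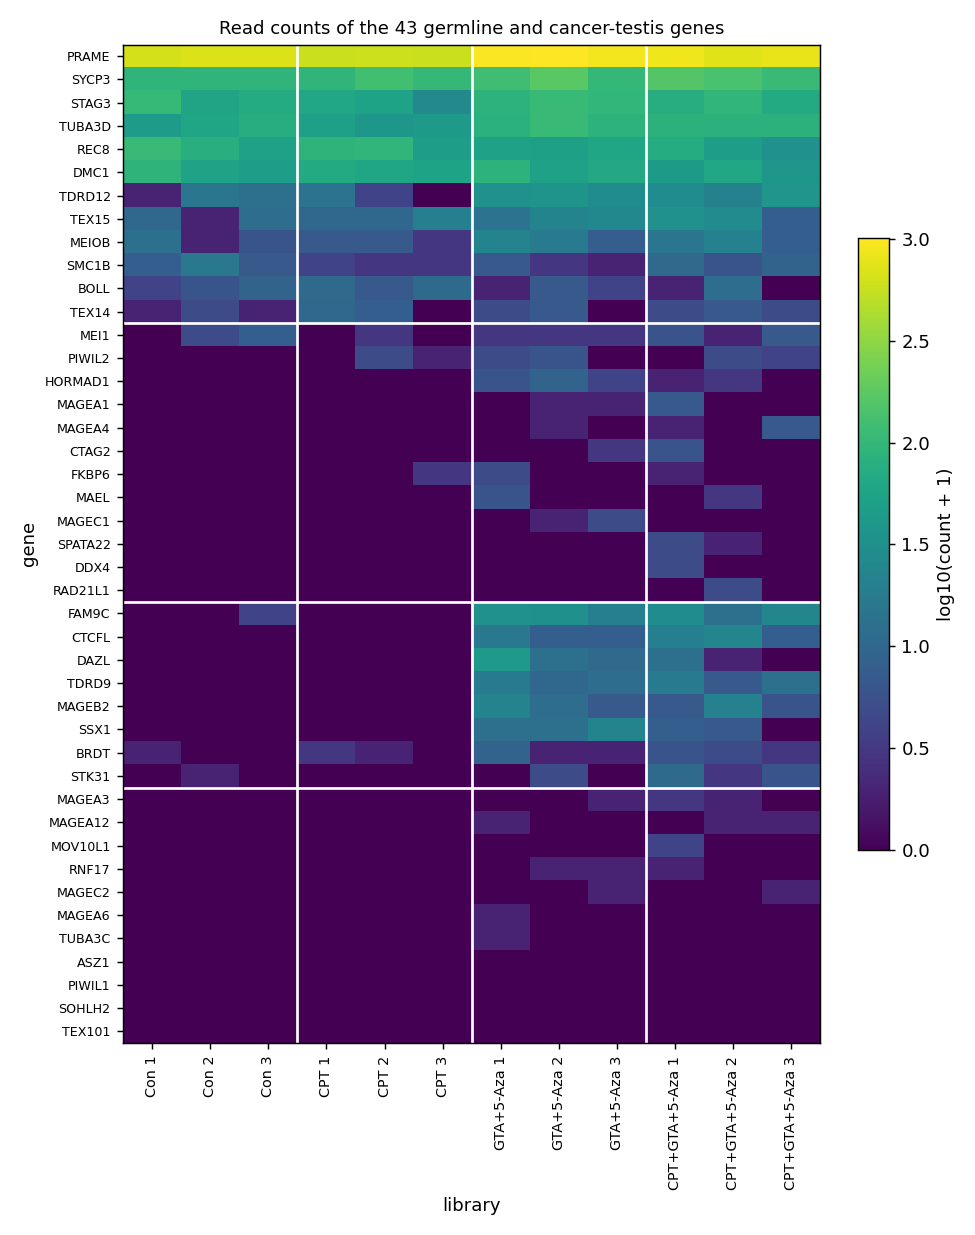
Read counts of the 43 genes (rows) in the 12 libraries (columns), as log10(count + 1), with white lines between the 4 groups of libraries and between genes silent in no group, in some groups, in both unprimed groups only and in every group. Counts of the third block, FAM9C to STK31, appear almost wholly in the 6 primed libraries.

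The number of members with at least 1 count was 13, 14 and 14 in the Con libraries and 13, 15 and 12 in the CPT libraries. It was 27, 27 and 26 in the GTA+5-Aza libraries and 31, 28 and 22 in the CPT+GTA+5-Aza libraries. The primed and unprimed libraries did not overlap. The lowest primed value came from CPT+GTA+5-Aza library 3, which also had the smallest total count of all 12. For all genes the same number was 21831 to 23106 in the unprimed and 22353 to 23442 in the primed libraries, which overlapped.

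**Figure D3:**
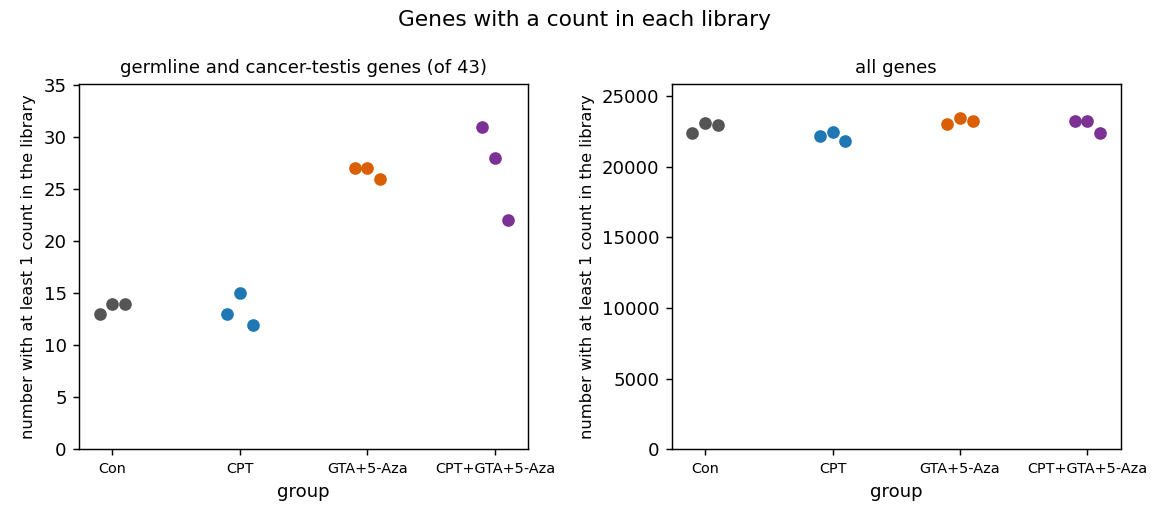
Number of genes with at least 1 count in each library, by group, for the 43 germline and cancer-testis genes (left) and for all genes (right), 1 point per library. The 6 primed libraries hold 22 to 31 of the 43 genes and the 6 unprimed libraries 12 to 15, while the numbers over all genes overlap.

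Of the 21 members at 0 in every unprimed library, 11 had counts in at least 3 primed libraries, against 13.1% of the 3157 genes of all that were at 0 in unprimed libraries and had a count in a primed one. TDRD9, CTCFL and MAGEB2 had counts in all 6, against 1.62% of those genes. Over all 32000 genes with a count, these patterns held for 1.3% and 0.159%, and the reverse patterns, which had no member, for 0.553% and 0.00625%. The 21 members had 438 counts over the 6 primed libraries, and 15 of them had at most 10 each. In 7 members (TDRD9, TDRD12, CTCFL, PRAME, TUBA3D, FAM9C and MAGEB2) every primed library was above every unprimed library in CPM, counts scaled to the library size, against 4.47% of all genes. In no member was every primed library below, against 3.66% of all genes.

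To ask which genes changed with priming, GTA+5-Aza was compared with Con, and CPT+GTA+5-Aza with CPT. The 2 comparisons share no library. In edgeR's quasi-likelihood test, with p-values adjusted over the 17123 genes that passed the filter on low counts, 9 of the 43 members were higher in GTA+5-Aza than in Con (9.95% of all genes tested): PRAME, FAM9C, TDRD9, SSX1, DAZL, MAGEB2, CTCFL, TUBA3D and SYCP3. In CPT+GTA+5-Aza against CPT, 8 were higher (9.57% of all genes tested), namely TDRD12 and the same genes without DAZL and SYCP3. No member was lower in either comparison (7.53% and 7.39% of all genes tested), with 0 lower at an unadjusted P under 0.05 and 0 lower by DESeq2. By the study's thresholds, a fold change above 1.5 at an unadjusted P under 0.05, 10 members were higher DEGs against Con (6.82% of all genes tested), with TDRD12 and TEX15 and without SYCP3. Against CPT 10 were higher (6.93%), with DAZL, MEIOB and STAG3 and without PRAME, and 0 were lower in either comparison (1.62% and 1.74%). Only 15 members passed the filter, and the other 28 were not in this fit. DAZL, TDRD9, CTCFL, MAGEB2 and SSX1 were at 0 in every unprimed library and passed the filter through the primed libraries alone, as did FAM9C with its 3 unprimed counts. Being in the fit therefore fixed the direction of these 6 genes, and their adjusted p-values below are a description beside the counts. TEX15 and MEIOB had counts in unprimed cells but also needed the primed libraries to pass the filter, so their p-values are to be read with the same care. A fit with no filter took in all 32000 genes with a count and assumed the same spread for every gene at a given level. Members at 0 in every unprimed library could only be higher in it too, so their result there is again a description. In it DAZL, TDRD9, CTCFL, MAGEB2, SSX1 and FAM9C were higher in both comparisons. They were among 8 members higher against Con (5.39% of all genes) and 10 against CPT (5.22%). Of the 28 members left out above, 24 were fitted, none of which passed in either comparison.

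**Figure D4:**
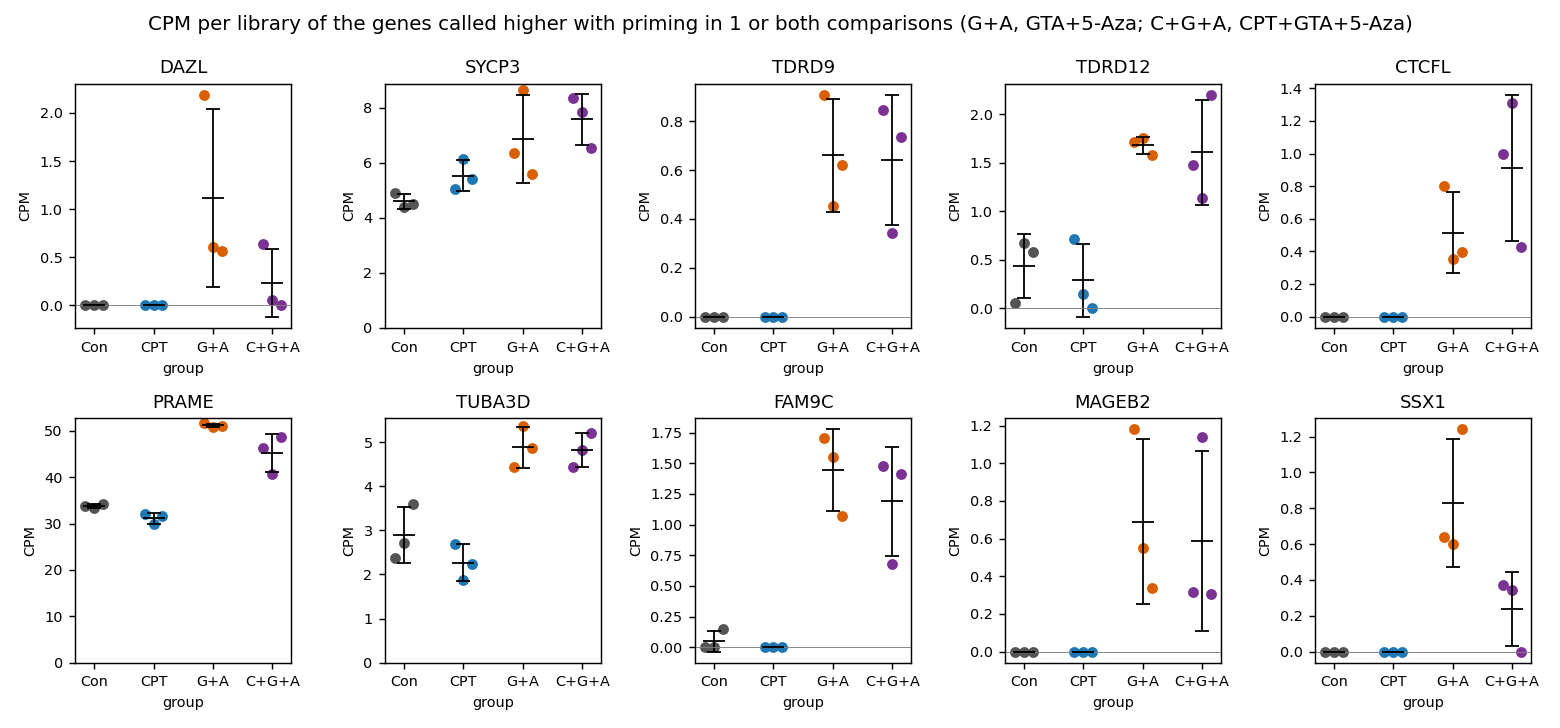
CPM in each library (points), with the group mean and SD (bars, n = 3), for the 10 genes called higher with priming in 1 or both comparisons. The points of DAZL, TDRD9, CTCFL, MAGEB2 and SSX1 lie at 0 in all 6 unprimed libraries, and those of PRAME rise from 29.8 to 34.2 CPM in unprimed to 40.6 to 51.6 CPM in primed libraries.

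Of the 12 germ granule and piRNA genes, 10 had a count and 5 were at 0 unprimed with a count after priming. TDRD9 (chr14:103928456-104052667) encodes a helicase with a tudor domain that acts in piRNA-guided silencing. Its counts were 0 in all 6 unprimed libraries, 17, 9 and 11 in GTA+5-Aza and 16, 6 and 12 in CPT+GTA+5-Aza. Pooled over each primed group, the levels were 13.2-fold the limit in Con and 12.2-fold the limit in CPT. The limit was set at 3 counts over a group, and folds of the limit, here and below, carry no error for the primed counts. Adjusted p by edgeR was 0.0014 and 0.00181, a description beside the counts, since TDRD9 passed the filter through the primed libraries alone.

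TDRD12 (chr19:32719753-32829580), a tudor protein of piRNA production, was already read in unprimed cells. Its counts were 1, 14 and 12 in Con, 13, 3 and 0 in CPT, 32, 35 and 28 in GTA+5-Aza and 28, 20 and 36 in CPT+GTA+5-Aza. Every primed library was above every unprimed library. The log2 fold change was 1.92 ± 0.69 (SE) in GTA+5-Aza against Con, which did not pass (edgeR, adjusted p = 0.0546), and 2.47 ± 0.74 in CPT+GTA+5-Aza against CPT (adjusted p = 0.0206). The first comparison passed when any 1 CPT library was left out (adjusted p = 0.0189 to 0.0306). The second call was lost without CPT library 3 (adjusted p = 0.0632) and without CPT+GTA+5-Aza library 3 (adjusted p = 0.0895).

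TEX15, which takes part in piRNA-directed methylation in male germ cells, had 21 counts over the Con libraries, 37 over CPT, 59 over GTA+5-Aza and 66 over CPT+GTA+5-Aza. Its log2 fold change with priming was 1.57 ± 0.68 against Con (edgeR, adjusted p = 0.116) and 0.89 ± 0.64 against CPT (adjusted p = 0.386). STK31, a tudor-domain kinase, had 1 count in unprimed cells, 0, 4 and 0 in GTA+5-Aza and 10, 2 and 5 in CPT+GTA+5-Aza (edgeR with no filter, adjusted p = 0.676 against Con and 0.0796 against CPT). PIWIL2, a PIWI protein that carries piRNAs, had at most 5 counts in any library, in CPT as well as in primed cells. The others were rarer: MAEL had 5 counts over GTA+5-Aza, FKBP6 had 4, DDX4 (the VASA helicase) had 4 in 1 library of CPT+GTA+5-Aza, and PIWIL1 and ASZ1 had none.

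The RNA-binding and surface group held 4 genes. DAZL (chr3:16586792-16670306), which governs translation in germ cells, was at 0 in all unprimed libraries and had 41, 12 and 10 counts in GTA+5-Aza. With CPT added it had 12, 1 and 0. Its level in GTA+5-Aza was 22.6-fold the limit in Con (edgeR, adjusted p = 0.00205). In CPT+GTA+5-Aza the level was 4.66-fold the limit in CPT, and the test was not passed (adjusted p = 0.0634), though it was without CPT+GTA+5-Aza library 3 (adjusted p = 0.0432). BOLL, of the same DAZ family, had 10 to 26 counts over each group, and TEX14, a protein of the bridges between germ cells, had 6 to 16.

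Among the 11 meiotic chromosome genes, all had a count somewhere. FAM9C (chrX:13035617-13044682) encodes a testis protein related to SYCP3. Its counts were 0, 0 and 3 in Con, 0 in each CPT library, 32, 31 and 19 in GTA+5-Aza and 28, 12 and 23 in CPT+GTA+5-Aza. The primed and unprimed libraries were far apart. The ratio of GTA+5-Aza to Con was 29.4 (95% counting interval 9.7 to 145, edgeR, adjusted p = 0.000419), and CPT+GTA+5-Aza was 22.6-fold the limit in CPT (adjusted p = 0.000145).

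SYCP3 (chr12:101728648-101739472), a structural protein of the synaptonemal complex, had 93, 92 and 93 counts in Con and 92, 125 and 99 in CPT. It had 119, 173 and 99 in GTA+5-Aza and 158, 138 and 107 in CPT+GTA+5-Aza. As CPM the group means were 4.6 ± 0.262 in Con, 5.54 ± 0.557 in CPT, 6.87 ± 1.6 in GTA+5-Aza and 7.58 ± 0.924 in CPT+GTA+5-Aza (SD, n = 3), and primed and CPT libraries overlapped. The log2 fold change was 0.58 ± 0.20 against Con (edgeR, adjusted p = 0.0418) and 0.45 ± 0.20 against CPT (adjusted p = 0.118). The call against Con is weak: it was lost without any 1 of the Con libraries or without GTA+5-Aza library 1 or 2 (adjusted p = 0.0632 to 0.26), and also without CPT+GTA+5-Aza library 1 or 2 (0.0515 and 0.0535). SYCP3 exons also overlap those of CHPT1 on the opposite strand by 566 bases, and since the strand setting of the counting is not given in the sources used here, some of its reads may belong to CHPT1.

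Of the meiotic cohesins, STAG3 and REC8 were in the filtered fit, and neither passed in it. STAG3 had 228 counts over Con, 143 over CPT, 289 over GTA+5-Aza and 235 over CPT+GTA+5-Aza, a log2 fold change of 0.43 ± 0.28 against Con (edgeR, adjusted p = 0.333) and of 0.82 ± 0.30 against CPT (adjusted p = 0.0564). Against CPT STAG3 passed by the study's thresholds and with no filter (adjusted p = 0.0373). REC8 had 238 and 231 counts over the unprimed groups and 159 and 151 over the primed ones, with log2 fold changes of -0.49 ± 0.32 and -0.52 ± 0.32 that did not pass (adjusted p = 0.329 and 0.296). SMC1B had 7 to 28 counts over a group, and RAD21L1 had 4 counts, all in 1 library.

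DMC1, the meiotic strand-exchange recombinase, was present in every library with 38 to 90 counts, and its log2 fold change was 0.18 ± 0.30 against Con and -0.24 ± 0.31 against CPT (edgeR, adjusted p = 0.762 and 0.674). MEIOB and SPATA22 encode partners that bind single-stranded DNA in meiotic recombination. MEIOB had 18 and 14 counts over the unprimed groups and 45 and 41 over the primed ones, without passing the test (edgeR, log2 fold changes of 1.37 ± 0.74 and 1.62 ± 0.76, adjusted p = 0.222 and 0.155). MEIOB exons overlap FAHD1 on the other strand by 177 bases. SPATA22 had 5 counts, all in CPT+GTA+5-Aza. HORMAD1, a protein of the meiotic chromosome axis, was at 0 in every unprimed library and had 5, 8 and 3 counts in GTA+5-Aza and 1, 2 and 0 in CPT+GTA+5-Aza. Its level in GTA+5-Aza was 5.73-fold the limit in Con. It did not pass the filter on low counts, and in the fit with no filter it did not pass against Con (edgeR, adjusted p = 0.106) or against CPT (adjusted p = 0.447).

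**Figure D5:**
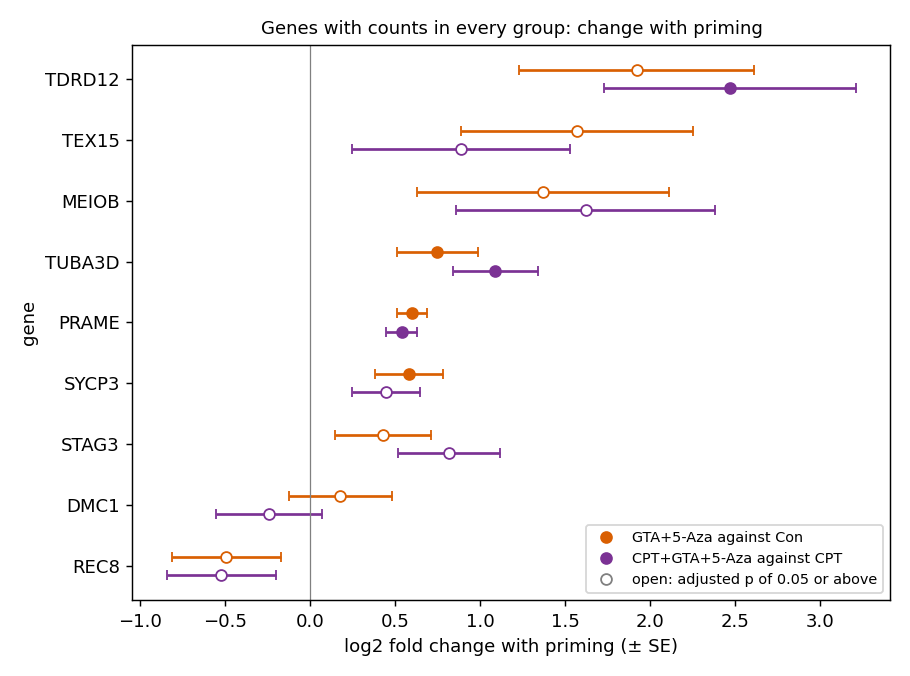
Log2 fold change with priming (x axis, points, with SE as bars) for the 9 tested genes that had counts in every group of libraries, without CPT (GTA+5-Aza against Con) and with CPT (CPT+GTA+5-Aza against CPT). Filled points passed an adjusted p of 0.05, and those of PRAME (0.60 and 0.54) have the smallest error, while REC8 is the member below 0 in both.

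Of the 3 transcription and chromatin genes, CTCFL (chr20:57495966-57525652), the testis paralog of the insulator protein CTCF, was at 0 in all unprimed libraries. It had 15, 7 and 7 counts in GTA+5-Aza and 19, 23 and 7 in CPT+GTA+5-Aza, 10.4-fold and 17.6-fold the limits in Con and CPT (edgeR, adjusted p = 0.00306 and 0.000775). BRDT, the bromodomain protein of the testis, had 1 and 3 counts over Con and CPT and 10 and 11 over the primed groups, with ratios of 10.7 (95% counting interval 1.53 to 466) and 3.94 (1.04 to 22). SOHLH2, a transcription factor of early germ cells, had no count. Of the 2 testis tubulins, TUBA3D (chr2:131476119-131482934) had 45, 57 and 74 counts in Con, 49, 38 and 41 in CPT, 83, 107 and 86 in GTA+5-Aza and 84, 85 and 85 in CPT+GTA+5-Aza. Every primed library was above every unprimed one in CPM, with log2 fold changes of 0.75 ± 0.24 against Con (edgeR, adjusted p = 0.0314) and 1.09 ± 0.25 against CPT (adjusted p = 0.00308). The first call was lost without Con library 1 or 2 or GTA+5-Aza library 2 or 3 (adjusted p = 0.0787 to 0.143). TUBA3D shares 3.79% of its 150-base windows with TUBA3E. TUBA3C had 1 count.

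The cancer-testis antigens were the group with the most members at 0 in unprimed cells, 10 of 11. All 10 lie on the X chromosome, and the exception, PRAME, lies on chromosome 22. PRAME (chr22:22547701-22559361), a tumor antigen that serves as a receptor of a ubiquitin ligase, was by far the highest member. Its counts were 642, 699 and 704 in Con, 584, 605 and 579 in CPT, 966, 1015 and 906 in GTA+5-Aza and 879, 716 and 796 in CPT+GTA+5-Aza. The groups primed and unprimed did not overlap. Mean CPM was 33.8 ± 0.46 in Con and 51.2 ± 0.39 in GTA+5-Aza (log2 fold change 0.60 ± 0.09; edgeR, adjusted p = 3e-05), and 31.2 ± 1.24 in CPT and 45.3 ± 4.17 in CPT+GTA+5-Aza (0.54 ± 0.09; adjusted p = 0.000131).

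MAGEB2 (chrX:30215563-30220089), of the MAGE family of ubiquitin ligase partners, was at 0 unprimed and had 22, 11 and 6 counts in GTA+5-Aza and 6, 20 and 5 in CPT+GTA+5-Aza. These levels were 14-fold and 11.1-fold the limits in Con and CPT (edgeR, adjusted p = 0.00231 and 0.00428). SSX1 (chrX:48255392-48267444), a nuclear repressor known as a fusion partner in synovial sarcoma, was at 0 unprimed and had 12, 12 and 22 counts in GTA+5-Aza and 7, 6 and 0 in CPT+GTA+5-Aza. It was 16.5-fold the limit in Con (edgeR, adjusted p = 0.00192) and 4.66-fold the limit in CPT (adjusted p = 0.0402). The second call was lost without any 1 library of CPT or GTA+5-Aza, or without CPT+GTA+5-Aza library 1 or 2 (adjusted p = 0.0535 to 0.126). DESeq2 called SSX1 against CPT but not against Con.

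The other 8 antigen genes stayed at 0 to 6 counts in every library. MAGEA4 had 6 counts in CPT+GTA+5-Aza library 3 and MAGEA1 had 6 in library 1, CTAG2 (the NY-ESO-1 family) had 5 in library 1 and 2 in GTA+5-Aza library 3, and MAGEC1 had 5 over GTA+5-Aza. MAGEA3, MAGEA6, MAGEA12 and MAGEC2 had at most 2 counts in any library. MAGEA3 and MAGEA6 share 30.1% of their 150-base transcript windows, and CTAG2 shares 15.9% with CTAG1A and with CTAG1B, so counts could be split or lost between them.

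Levels of different genes were set side by side as CPM per kilobase of exon. In Con the order was PRAME (8.87 ± 0.121), TUBA3D (1.84 ± 0.404), SYCP3 (1.2 ± 0.0684), DMC1 (1.08 ± 0.458), REC8 (1.03 ± 0.427) and STAG3 (0.621 ± 0.227; SD, n = 3). SYCP3, DMC1 and REC8 lay within each other's spread, and every other member was below 0.2. In GTA+5-Aza PRAME stood at 13.5 ± 0.103, TUBA3D at 3.11 ± 0.294 and SYCP3 at 1.79 ± 0.418. Of the genes silent before priming, SSX1 reached 0.677 ± 0.294 in this group, close to the cohesins STAG3 (0.835 ± 0.0728) and REC8 (0.738 ± 0.103). MAGEB2 reached 0.428 ± 0.271, DAZL 0.315 ± 0.261, FAM9C 0.247 ± 0.0566, TDRD9 0.12 ± 0.0422 and CTCFL 0.0578 ± 0.0278. The order of MAGEB2, DAZL and FAM9C was not resolved beyond their spread. In CPT+GTA+5-Aza SSX1 was lower, at 0.194 ± 0.168, against 0.724 ± 0.126 for STAG3 and 0.731 ± 0.242 for REC8.

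To ask whether CPT moved these genes, CPT was compared with Con, and CPT+GTA+5-Aza with GTA+5-Aza. In CPT against Con no member passed (edgeR, 0% of all genes tested). Of the 15 members that passed the filter, 0 were at an unadjusted P under 0.05, and DESeq2 called 0. None of the 15 was thus a DEG by the study's thresholds (0.689% of all genes tested were higher and 1.14% lower). With no filter, STAG3 was lower in CPT at an unadjusted P of 0.0327 (edgeR, log2 fold change -0.59, adjusted p = 0.948). In CPT+GTA+5-Aza against GTA+5-Aza no member passed either (0% of all genes tested). DAZL was the 1 member at an unadjusted P under 0.05, with 41, 12 and 10 counts without CPT and 12, 1 and 0 with it (edgeR's test across all genes, log2 fold change -2.20 ± 0.93, adjusted p = 1), and DESeq2 called none. Under the study's thresholds DAZL would be a lower DEG, as were 0.66% of all genes tested. SSX1 (log2 fold change -1.74 ± 0.86) and PRAME (-0.18 ± 0.09) did not reach these thresholds in the same comparison, in which no member was a higher DEG (0.345% of all genes tested). Whether priming acted differently with and without CPT was tested as an interaction, in which no member passed (0% of all genes tested). In the filtered fit 0 members were at an unadjusted P under 0.05, and DESeq2 called 0, while 0.934% of all genes tested were above and 0.841% below 0 by the study's thresholds. With no filter, SMC1B was at an unadjusted P of 0.0274 (edgeR, log2 fold change 3.24) and did not pass after adjustment. The interaction could not be fitted for members at 0 in a whole group. Among these were DAZL, TDRD9, CTCFL, FAM9C, MAGEB2 and SSX1, so the result does not cover them.

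Other genes of the same pathways were read from lists. Of 51 further cancer-testis antigens, 18 had a count, 14 were at 0 unprimed with a count after priming and 1 showed the reverse. These patterns held for 9.87% and 6.91% of all genes with a count. Of the 14, all but SSX3 were near the floor, with at most 8 counts in any library. Only 2 of the 51 could be tested, and SSX3, a neighbor of SSX1 in the same family, was higher in both comparisons. Its counts were 0 in all unprimed libraries, 22, 15 and 19 in GTA+5-Aza and 28, 9 and 19 in CPT+GTA+5-Aza (edgeR, adjusted p = 0.000257 and 0.000278). SSX3 passed the filter through the primed libraries alone, which fixed its direction, so these p-values are a description beside the counts.

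Of 16 further germ granule and piRNA genes, 7 were tested. TDRD7, a tudor protein of germ granules, was higher, from 7 to 26 counts in unprimed libraries to 43 to 59 in primed ones (edgeR, log2 fold changes of 1.52 ± 0.40 and 1.70 ± 0.41, adjusted p = 0.00925 and 0.00476). MYBL1, the transcription factor of piRNA precursors, was lower (-0.39 ± 0.08 and -0.50 ± 0.08, adjusted p = 0.00102 and 8.25e-05). GPAT2 and TDRKH were also higher against CPT. Of 29 further meiosis genes, 10 were tested and none passed in GTA+5-Aza against Con (edgeR, 2 at an unadjusted P under 0.05 and 0 called by DESeq2), while SGO2, which protects cohesion at centromeres and also acts in mitosis, was lower against CPT (-0.27 ± 0.08, adjusted p = 0.0234).

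Of 12 repressors of germline genes, 11 were found by symbol and all were tested. EHMT1, a histone H3 lysine 9 methyltransferase, fell from 1887 to 2173 counts in unprimed libraries to 901 to 1326 in primed ones (edgeR, log2 fold changes of -0.63 ± 0.08 and -0.79 ± 0.08, adjusted p = 1.5e-06 and 6.9e-08). DNMT3B, which sets new DNA methylation, was higher (0.49 ± 0.10 and 0.31 ± 0.10, adjusted p = 0.00146 and 0.0429). E2F6 was higher against Con (0.38 ± 0.13, adjusted p = 0.0415) and did not pass against CPT (0.31 ± 0.13, adjusted p = 0.0955). The other 8 passed in neither comparison. In the CPT comparisons no gene of these 4 lists passed by edgeR, with 0 at an unadjusted P under 0.05 and 0 by DESeq2.

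Markers of other cells were read in the same libraries. Of 7 late germ cell genes, PRM1, PRM2, TNP1, TNP2 and ODF1 were at 0 in every library, AKAP4 had 1 count in all, and ACRV1, with 3 to 21 counts per library, passed in no comparison. Of 3 testis somatic genes, INSL3 had at most 4 counts and STAR at most 7, while AMH had 442 to 666 and was higher in CPT+GTA+5-Aza than in CPT (edgeR, log2 fold change 0.37 ± 0.11, adjusted p = 0.0217). The white cell gene PTPRC had at most 4 counts and the endothelial gene PECAM1 none. COL1A1, of fibroblasts, had 1 to 5 counts in unprimed and 21 to 44 in primed libraries (edgeR, log2 fold changes of 3.62 ± 0.68 and 3.46 ± 0.70, adjusted p = 0.000425 and 0.000934). COL1A1 passed the filter through the primed libraries alone, so these p-values are a description beside the counts. Its part in the changes of the germline genes was not tested.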

How the data were processed

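RNA-seq of 12 MiaPaca2 libraries was used, 3 per group. The paired reads of 150 bp were cleaned by the authors with Trim Galore, mapped to GRCh38 (HISAT2 2.2.1) and summed per gene by HTSeq. Deposited are the resulting raw counts. The annotation release and strand setting are not given in the sources used here. Every row named a gene. Total counts were 16162490 to 21224665. Groups came from the sample labels. Replicate pairs differed beyond sampling noise (chi-square per degree of freedom 3.88 to 16.6 in 12 pairs), so none was taken as a duplicate.

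Identifiers were matched to GENCODE v44, which also gave coordinates and exon lengths (52181 of 63677 matched). Counts were analysed with edgeR 4.0.16 in R 4.3.3 (filterByExpr on the 4 groups, TMM scaling, glmQLFit and glmQLFTest, all 12 libraries in 1 fit), and 2-sided p-values were adjusted by Benjamini-Hochberg over 17123 genes. A member was called at an adjusted p under 0.05. DESeq2 1.42.0, other scalings and filters, the study's thresholds, a replicate block and leaving out each library were alternatives. The steps were tested on simulated data, with changes placed only in genes that passed the filter. No change from 0 was simulated, so genes at 0 in every unprimed library were not covered. CPM used TMM-scaled library sizes. Ratios against 1 to 3 counts have exact conditional binomial intervals.

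Members and gene lists were chosen with earlier results of these data known. Values in every library are given for members called in a priming comparison, or past the study's thresholds in a CPT comparison, promoters for the 4 called members with the smallest p in GTA+5-Aza against Con, and up to 3 called genes with the smallest p there from each further list. GPAT2, TDRKH, SGO2 and the marker genes were named after their values were seen. Protein identity within families was not analysed here, and shared 150-base transcript windows were used instead, a choice made after the data were seen.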

Additional observations from a re-analysis of the deposited data

How the results depend on the processing

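Counting error and the filter limit these results: 28 of 43 members did not pass the filter, and 24 of them could be fitted with no filter, where none passed. No direction was reversed under any alternative. For members at 0 in every unprimed library, such as DAZL, TDRD9, CTCFL, MAGEB2 and SSX1, no alternative could reverse the direction of priming. For the number of members higher in GTA+5-Aza than in Con (9), the alternatives gave 6 to 10, and 7 to 10 when 1 library was left out. For the number higher in CPT+GTA+5-Aza than in CPT (8), a test against a fold change of 1.5 (glmTreat) gave 4 (CTCFL, FAM9C, MAGEB2 and TDRD9). With only those 2 groups in the fit it was 4 (FAM9C, PRAME, TDRD12 and TUBA3D). TDRD9, CTCFL and MAGEB2 did not pass the filter in 2-group fits. Leaving out 1 library gave 6 to 9, and 6 came without CPT library 3. The numbers of members lower, and those called for CPT or the interaction, stayed at 0 to 0, except that the study's thresholds called 1 (DAZL) in CPT+GTA+5-Aza against GTA+5-Aza. The interaction was not fitted with only 2 groups.

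The number silent in every group (11) was 4 when silence meant no count at all and 18 when it meant a mean CPM under 0.1, and 11 to 15 with 1 library left out. The number silent in both unprimed groups only (8) was 14 with no count allowed, and 7 to 9 with 1 library left out. The number silent in no group (12) was 14 with no count allowed, which adds BRDT and MEI1, 11 with a mean CPM under 0.1, and 11 to 12 with 1 library left out.

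The replicate numbers gave no pairing: deviations of same-numbered libraries correlated at -0.0844 to 0.117 in 18 pairs, and 3 of 12 libraries correlated best with their own number. A replicate block left 9 members higher than in Con and 8 in the comparison with CPT, where SSX1 (adjusted p = 0.0592) was replaced by STAG3, and 0 in all other comparisons. By gene, SYCP3 was lost with DESeq2 (adjusted p = 0.0578), which did not call SSX1 against Con either. TUBA3D against Con was lost with no filter (edgeR, adjusted p = 0.0654), while TDRD12 against Con was gained with DESeq2 (adjusted p = 0.039).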
